A study of Drosophila melanogaster with 30 samples.

Results

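The phototransduction cascade genes described here are 10 of the 17559 genes in the study's count table, taken by name: Gbeta76C, norpA, CdsA, laza, trp, trpl, inaC, inaD, ninaC and rtp. All 10 names were found. RNA was sequenced from the heads and bodies of single adult male flies in groups of 5 libraries per tissue. Aged SF flies were 25 days old and had fragmented sleep in a sleep assay, aged NSF flies were 25 days old and slept normally, and young flies were 5 days old and slept normally. Every fly had the Cantonized w1118 genotype, in which the white gene is mutant and the eye lacks its screening pigment, and every group was kept in a cycle of light and dark. Aged SF and young flies differ in age and in sleep at once, so that age and sleep cannot be told apart in that comparison. All flies carry 1 batch date in the labels, and the time of day is not given there. Whole heads were used, so that the eye is measured together with the brain, fat body, muscle and cuticle of the head.

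In the compound eye of the fly, light turns rhodopsin into metarhodopsin, which activates a Gq protein and through it the phospholipase C encoded by norpA. The enzyme splits the membrane lipid PIP2, and the cation channels TRP and TRPL open in response. The scaffold protein INAD holds TRP, the phospholipase and the eye-specific protein kinase C together in the microvilli of the rhabdomere, and the lipid that was spent is rebuilt by a cycle of enzymes in which CdsA and laza take part. Mutants of many of these genes have abnormal light responses or lose photoreceptors, and in the adult most of the genes are known above all from photoreceptor cells.

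The members are protein-coding genes, placed here by the dm6 coordinates of the gene annotation. Gbeta76C (FBgn0004623, chromosome 3L, 19687637 to 19689992, plus strand) encodes the beta subunit of the eye's Gq protein. norpA (FBgn0262738, chromosome X, 4322626 to 4365408, plus strand) encodes phospholipase C beta, the effector that the G protein switches on. CdsA (FBgn0010350, chromosome 3L, 8127762 to 8131675, plus strand), named Cds in the current annotation, encodes CDP-diacylglycerol synthase, which turns phosphatidic acid into the precursor of phosphatidylinositol. laza (FBgn0037163, chromosome 3L, 22458816 to 22461131, minus strand) encodes a lipid phosphate phosphatase that removes phosphatidic acid in photoreceptors. The channel genes are trp (FBgn0003861, chromosome 3R, 29914521 to 29920289, minus strand) and trpl (FBgn0005614, chromosome 2R, 9753697 to 9765518, plus strand). inaC (FBgn0004784, chromosome 2R, 16898535 to 16901575, plus strand) encodes the eye-specific protein kinase C, which acts in the termination of the response, and inaD (FBgn0001263, chromosome 2R, 22855688 to 22858794, minus strand) the PDZ-domain scaffold. ninaC (FBgn0002938, chromosome 2L, 7377702 to 7384344, plus strand) encodes a class III myosin with a kinase domain, and rtp (FBgn0087005, chromosome 3R, 5236092 to 5237315, minus strand) encodes retinophilin, a MORN-repeat protein that helps to hold the NINAC myosin in the rhabdomere. Genes on the opposite strand overlap 20.5% of the exonic sequence of rtp (Mms19) and 0.300% of that of inaD (RpL23). The strand setting of the counting is not given in the sources used here, so reads of those partners cannot be told apart from the members' own.

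Head libraries held 1685034 to 3597530 reads on genes and body libraries 2458538 to 8060238. Levels are given as CPM, counts divided by library size after scaling with TMM factors, and heads and bodies were scaled separately unless stated. The labelled tissues were checked against marker genes. Photoreceptor marker genes summed to 1292 to 1907 CPM in aged SF heads, 1115 to 1462 CPM in aged NSF heads and 1563 to 2332 CPM in young heads, against 64.7 to 158 CPM in bodies of all groups. Testis genes summed to 0.376 to 7.51 CPM in heads and accessory gland genes to 0.421 to 5.38 CPM, while every body had at least 378 CPM of the testis genes and 861 CPM of the accessory gland genes. Of the body libraries, aged NSF body 2 stood apart, with reads of eye genes well above the other bodies. Those reads are taken to reflect head material and not levels of the body, and their source was not tested. Results that rest on that library are given with and without it. Aged NSF body 1 stood apart in another way, with 378 CPM of the testis genes against 2626 to 3695 CPM in the other aged NSF bodies.

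**Figure D1:**
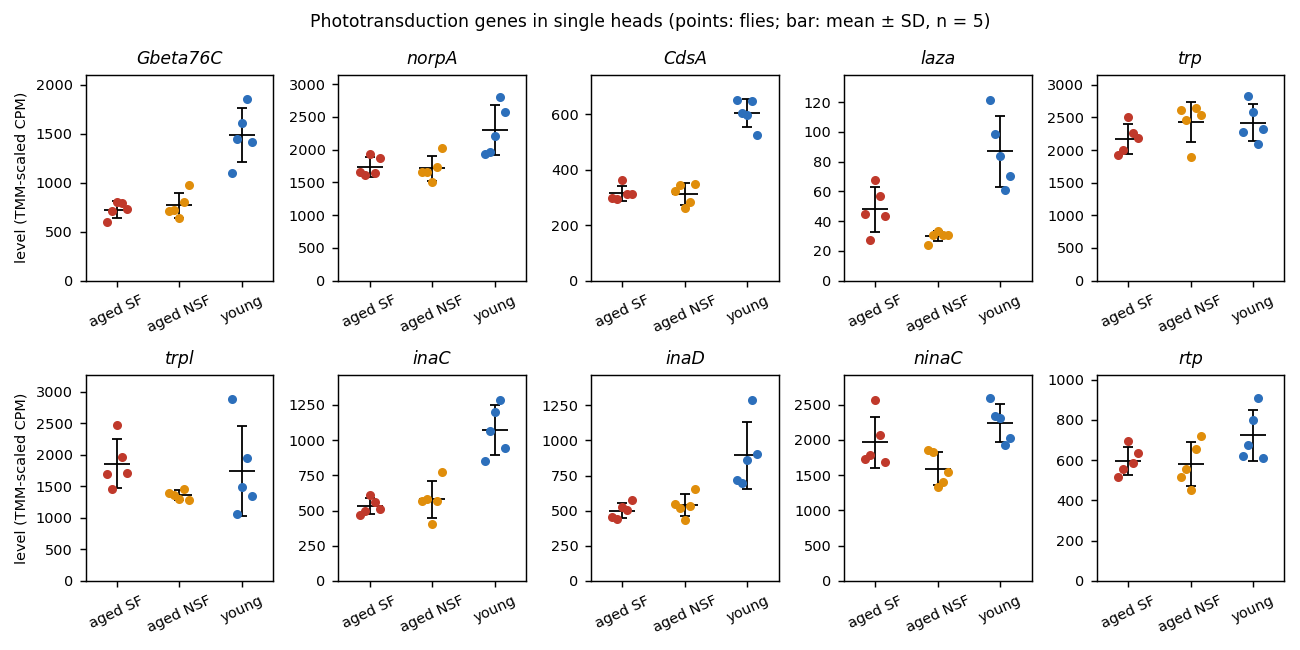
Levels of the 10 members in each head, in TMM-scaled CPM on linear axes that start at 0. Points are single flies and bars the mean ± SD of 5 flies in the aged SF, aged NSF and young groups. Every aged head lay below every young head in Gbeta76C, CdsA, inaC and inaD, whereas the groups overlapped in trp, trpl and rtp.

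The members were not equally abundant. Per kilobase of exon, young heads had 1013 CPM of Gbeta76C and 753 CPM of rtp at the top, then 583 of trp, 455 of inaC, 448 of trpl, 412 of ninaC, 384 of inaD, 277 of norpA and 232 of CdsA. laza, at 37.5 CPM per kilobase, was the scarcest member. Neighbours in that order overlapped between single heads except CdsA and laza. In aged SF heads the order per kilobase began with rtp at 622, trp at 524, Gbeta76C at 495 and trpl at 477 CPM, and in aged NSF heads with rtp at 604, trp at 586 and Gbeta76C at 524 CPM. Gbeta76C, which led in young heads, stood in the third place in both aged groups, and its levels there overlapped those of trp. inaC, which stood just below trp in young heads, came below ninaC in both aged groups, at 226 CPM per kilobase in aged SF and 246 in aged NSF heads. At the bottom stood CdsA, with 121 and 119.8 CPM per kilobase in aged SF and aged NSF heads, and laza, with 20.7 and 12.9.

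What age does to these genes in a normally sleeping fly is asked by the aged NSF and young heads. Of the 10 members, 7 fell, 0 rose and 3 did not pass the test in aged NSF heads. Among all genes tested, 11.5% were called lower and 11.4% higher. The median log2 fold change of the members was -0.61, against 0.02 over all 9088 genes tested, and for 6 of the 10 members every aged NSF head lay below every young head, which held for 8.02% of all genes. laza and CdsA of the lipid cycle, the G protein subunit gene Gbeta76C and the INAD-complex genes inaC and inaD had the largest decreases, while the channel gene trp had a log2 fold change of 0.01. In whole heads, fewer photoreceptors and less RNA per photoreceptor cannot be told apart.

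Aged SF heads against the same young heads gave the comparison in fragmented sleepers. There 6 of the 10 members fell, 0 rose and 4 did not pass, where 12.2% of all genes were called lower and 13% higher. The members' median was -0.62 and that of all genes -0.00, and in 4 members all aged SF heads lay below all young heads, against 8.59% of all genes. Because both age comparisons use the same young heads, their values are set side by side below and their likeness is not counted as a result. Summed over the 10 members, aged SF heads had 10454 ± 1305 CPM, aged NSF heads 9907 ± 986 CPM and young heads 13561 ± 852 CPM (SD, n = 5 each), which is 1.05%, 0.991% and 1.36% of the scaled reads. The summed level was 9359 to 12537 CPM in aged SF, 8248 to 10899 CPM in aged NSF and 12738 to 14803 CPM in young heads, so that neither aged group overlapped the young one.

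At the G protein step, Gbeta76C was at 597, 706, 807, 792 and 729 CPM in the 5 aged SF heads, at 706, 724, 635, 803 and 975 CPM in the aged NSF heads and at 1099, 1449, 1610.2, 1852 and 1417 CPM in the young heads. All aged heads were below all young ones, and the aged groups overlapped. Gbeta76C fell by 1.03 ± 0.14 (SE) on the log2 scale in aged SF heads (edgeR quasi-likelihood test, p adjusted by Benjamini-Hochberg = 5.50e-06) and by 0.95 ± 0.14 in aged NSF heads (edgeR adjusted p = 1.81e-05). The phospholipase gene norpA, which takes the next step, was at 1653, 1605, 1938, 1638 and 1865 CPM in aged SF, at 1661, 1662, 1511, 1731 and 2027 CPM in aged NSF and at 1934, 1961, 2213, 2796 and 2576 CPM in young heads. In each aged group the highest head reached the range of the young heads. norpA fell by 0.40 ± 0.13 on the log2 scale in aged SF heads (edgeR adjusted p = 0.0204) and by 0.42 ± 0.13 in aged NSF heads (edgeR adjusted p = 0.0168). Its calls were the weakest of the members: fitted with only the compared groups, norpA had an edgeR adjusted p of 0.0517 in aged SF and 0.0540 in aged NSF heads. The aged SF call was also lost without aged SF head 1, 2 or 4 or young head 4 or 5 (edgeR adjusted p = 0.0510 to 0.0599), and the aged NSF call without aged NSF head 2 or 3 (edgeR adjusted p = 0.0525 and 0.0508).

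In the lipid cycle, CdsA stood at 297, 294, 361, 313 and 312 CPM in aged SF heads, at 324, 344, 262, 284 and 349.7 CPM in aged NSF heads and at 651, 605, 595, 646 and 524 CPM in young heads. The highest aged head, aged SF head 3, was well below the lowest young head, and the spread within groups was small. CdsA fell by 0.94 ± 0.12 (SE) on the log2 scale in aged SF heads (edgeR adjusted p = 1.78e-06) and by 0.95 ± 0.12 in aged NSF heads (edgeR adjusted p = 1.66e-06). laza was at 44.6, 27.5, 67.5, 56.9 and 43.6 CPM in aged SF, at 24.1, 30.7, 33.3, 30.4 and 30.5 CPM in aged NSF and at 121, 98.6, 83.6, 60.7 and 70.5 CPM in young heads, from 62 to 156, 51 to 110 and 120 to 355 reads per library. The aged NSF heads lay close together and below all young heads, while the highest aged SF head passed the lowest young head. The decrease was 0.86 ± 0.21 in aged SF heads (-0.86, edgeR adjusted p = 0.00305) and 1.54 ± 0.21 in aged NSF heads (-1.54, edgeR adjusted p = 5.95e-06). With aged SF set against aged NSF heads the laza difference was 0.69 ± 0.21, at an unadjusted p of 0.00352 and an edgeR adjusted p of 0.234, so it did not pass.

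Neither gene of the light-gated channels passed the age tests. trp was at 1919, 1997, 2502, 2259.6 and 2190.0 CPM in aged SF heads, 2609.8, 2461, 1891, 2649 and 2541 CPM in aged NSF heads and 2277, 2823, 2582, 2099 and 2319 CPM in young heads. The 3 groups overlapped, and aged NSF head 3 was the lowest of all. The log2 fold change of trp was -0.16 ± 0.12 in aged SF (95% interval -0.41 to 0.10) and 0.01 ± 0.12 in aged NSF heads (-0.25 to 0.26), with edgeR adjusted p = 0.401 and 0.981. trpl was at 1698, 1448, 2471, 1961 and 1709.6 CPM in aged SF, 1394, 1367, 1293, 1462 and 1279.8 CPM in aged NSF and 2877, 1063, 1494, 1939.6 and 1345 CPM in young heads. Its spread was wide among young heads, where young head 1 held the highest and young head 2 the lowest level, and narrow among aged NSF heads. Against young heads, trpl had a log2 fold change of 0.09 in aged SF (95% interval -0.33 to 0.52) and -0.36 in aged NSF heads (-0.78 to 0.07), neither past the test (edgeR adjusted p = 0.791 and 0.229).

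Among the partners of INAD, inaC was at 468, 498, 613, 561 and 513 CPM in aged SF, at 569, 582, 402, 569 and 774 CPM in aged NSF and at 853, 1062, 1201, 1287 and 946 CPM in young heads. No aged head reached the lowest young head. The kinase gene fell by 1.01 ± 0.15 (SE) on the log2 scale in aged SF heads (edgeR adjusted p = 1.28e-05) and by 0.89 ± 0.15 in aged NSF heads (edgeR adjusted p = 7.63e-05). The scaffold gene inaD was at 458, 442, 525, 502 and 578 CPM in aged SF, 549, 521, 433, 533 and 654 CPM in aged NSF and 719, 698, 863, 1291 and 902 CPM in young heads. Again the aged heads lay below the young ones, and young head 4 was the highest. inaD fell by 0.84 ± 0.15 in aged SF heads (edgeR adjusted p = 0.000155) and by 0.73 ± 0.15 in aged NSF heads (edgeR adjusted p = 0.000696).

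The myosin gene ninaC was at 1729.8, 1785, 2558, 2065 and 1688 CPM in aged SF, 1849, 1821, 1338, 1401 and 1547 CPM in aged NSF and 2593, 2337, 2308, 1923 and 2028 CPM in young heads. All aged NSF heads were below the lowest young head, whereas aged SF heads 3 and 4 were within the young range. ninaC fell by 0.49 ± 0.14 on the log2 scale in aged NSF heads (edgeR adjusted p = 0.00932), and its log2 fold change in aged SF heads was -0.19 ± 0.14 (edgeR adjusted p = 0.351). The difference between aged SF and aged NSF heads was itself not called (0.30 ± 0.14, edgeR adjusted p = 0.476). rtp ranged over 514 to 694 CPM in aged SF, 452 to 721 CPM in aged NSF and 611 to 908 CPM in young heads, and the groups overlapped. Its log2 fold change was -0.28 ± 0.14 in aged SF and -0.32 ± 0.14 in aged NSF heads, at edgeR adjusted p = 0.167 and 0.113.

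**Figure D2:**
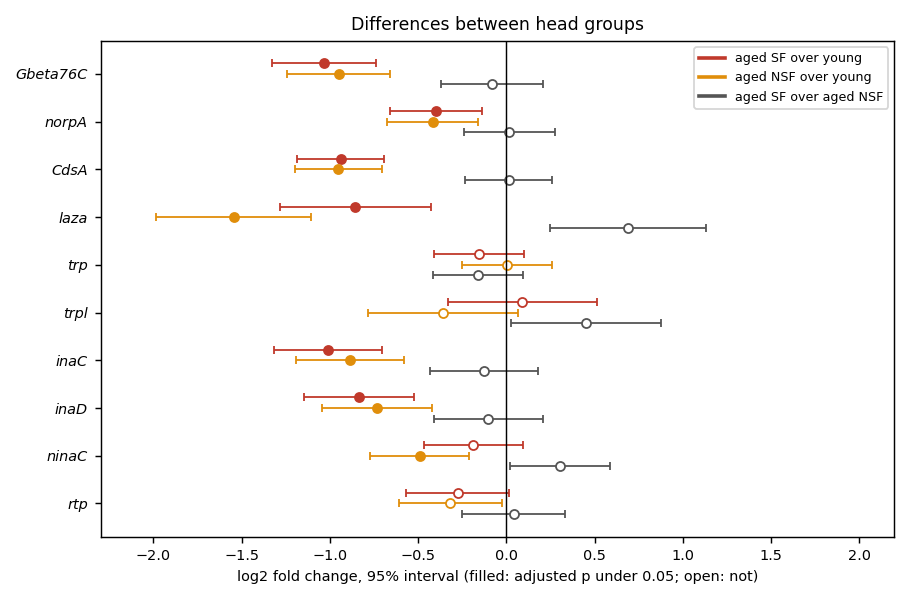
Log2 fold changes of the members in heads with 95% intervals from the edgeR fit of 15 heads, for aged SF over young, aged NSF over young and aged SF over aged NSF. Filled points passed an adjusted p of 0.05, which 6 and 7 members did against young heads and 0 did between the aged groups.

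Whether fragmented sleep goes with another level of these genes at equal age was addressed by aged SF against aged NSF heads. No member passed: edgeR called 0 of the 10, DESeq2 and limma with quality weights called 0 as well, and 3 members had an unadjusted edgeR p under 0.05. These were laza, trpl and ninaC, all with higher means in aged SF heads. trpl averaged 1858 ± 388 CPM in aged SF and 1359 ± 75.3 CPM in aged NSF heads (SD, n = 5 each, log2 fold change 0.45 ± 0.20, edgeR adjusted p = 0.493), and the lowest aged SF head was within the range of aged NSF heads. ninaC averaged 1965 ± 363 CPM in aged SF and 1591 ± 235 CPM in aged NSF heads, and laza 48.0 ± 15.1 and 29.8 ± 3.39 CPM. Over all genes, 0.253% were called, and 2% did not overlap between the groups. The intervals bound what could have been missed. The 95% interval of the log2 difference was -0.23 to 0.26 for CdsA, -0.24 to 0.28 for norpA, -0.42 to 0.09 for trp and -0.37 to 0.21 for Gbeta76C, and it reached 1.13 for laza and 0.88 for trpl.

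Ratios between members within a head do not depend on the library's scaling. 7 ratios of levels per kilobase were computed and are given as a description without a test, because they were chosen after the counts had been seen. The ratio of trp to trpl was 1.06, 1.29, 0.950, 1.08 and 1.20 in aged SF heads, 1.76, 1.69, 1.37, 1.70 and 1.86 in aged NSF ones and 0.743, 2.49, 1.62, 1.02 and 1.62 in young ones. No aged SF head reached the lowest aged NSF head, and the young heads spanned both. All the other ratios overlapped between the aged groups. The ratio averaged 1.12 ± 0.133 in aged SF and 1.68 ± 0.183 in aged NSF heads (SD, n = 5 each), a log2 difference of -0.59. With each of the 10 heads left out, the difference lay between -0.66 and -0.53. In young heads it averaged 1.50 ± 0.674. Aged NSF head 3, which was low in trp, had the lowest ratio of its group.

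The ratio of the kinase to the channel, inaC over trp, was 0.431, 0.440, 0.433, 0.438 and 0.413 in aged SF, 0.384, 0.418, 0.375, 0.379 and 0.537 in aged NSF and 0.661, 0.664, 0.821, 1.08 and 0.720 in young heads. All young heads exceeded all aged heads. The ratio averaged 0.431 ± 0.0106 in aged SF, 0.419 ± 0.0684 in aged NSF and 0.790 ± 0.176 in young heads (SD, n = 5 each). The ratio of inaD to trp averaged 0.412 ± 0.0372 in aged SF, 0.395 ± 0.0394 in aged NSF and 0.677 ± 0.250 in young heads. At the first steps of the cascade, Gbeta76C over norpA was 2.04, 2.49, 2.36, 2.74 and 2.21 in aged SF, 2.41, 2.46, 2.38, 2.63 and 2.72 in aged NSF and 3.21, 4.18, 4.12, 3.75 and 3.11 in young heads. The aged heads again lay below all young heads, with means of 2.37 ± 0.265 in aged SF, 2.52 ± 0.148 in aged NSF and 3.67 ± 0.496 in young heads. norpA over trp averaged 0.402 ± 0.0282 in aged SF, 0.356 ± 0.0398 in aged NSF and 0.484 ± 0.126 in young heads. laza over CdsA averaged 0.170 ± 0.0425 in aged SF, 0.109 ± 0.0231 in aged NSF and 0.162 ± 0.0388 in young heads. rtp over ninaC averaged 1.74 ± 0.229 in aged SF, 2.10 ± 0.505 in aged NSF and 1.86 ± 0.499 in young heads.

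**Figure D3:**
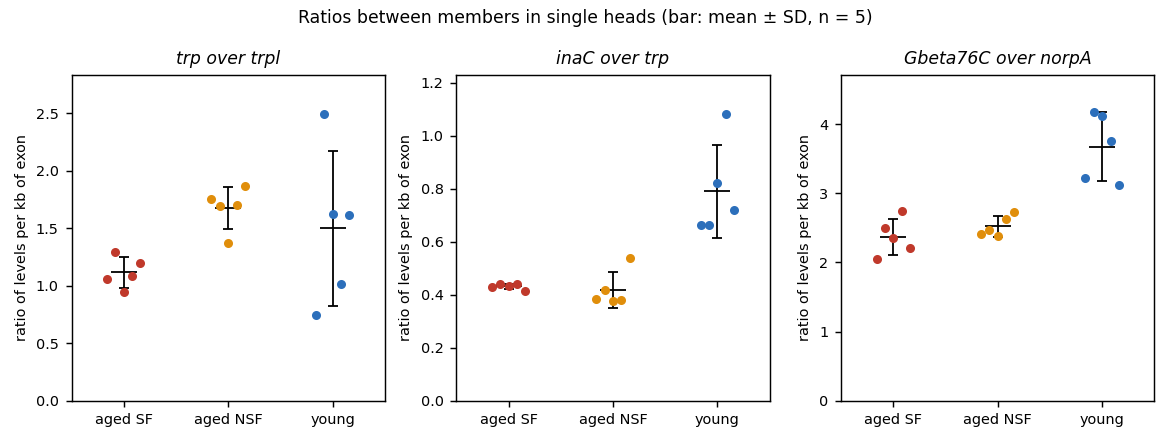
Ratios of levels per kilobase of exon in single heads of aged SF, aged NSF and young flies, with the mean ± SD of 5 heads. The trp to trpl ratio does not overlap between aged SF and aged NSF heads, and inaC over trp and Gbeta76C over norpA are lower in all aged heads than in any young head. The ratios were chosen after the counts had been seen and are shown without a test.

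Within groups the members did not form a single block. For each of the 45 pairs of members, the deviations of log2 CPM from the group mean were correlated over the 15 heads, with p-values from 100000 permutations within groups. Both genes of a pair share the library and its scaling. Pairs of other head genes were not correlated in this way, so the counts below have no background and are not read as particular to the members. 8 pairs passed by Pearson's r after adjustment over the 45, and 4 by both Pearson's r and Spearman's rho. norpA and inaD had r = 0.92 and rho = 0.91 (permutation p = 4e-05, adjusted 0.0006, and 0.00031, adjusted 0.00371), with r = 0.86 without the 2 heads farthest from the median of norpA. Gbeta76C and inaC had r = 0.90 and rho = 0.87 (permutation p = 2e-05, adjusted 0.0006, and 0.00025, adjusted 0.00371), and r = 0.86 without the 2 farthest heads. rtp correlated with inaC (r = 0.89, rho = 0.87, permutation p = 4e-05 and 0.00033, adjusted 0.0006 and 0.00371, r = 0.84 without the 2 farthest) and with Gbeta76C (r = 0.89, rho = 0.90, permutation p = 6e-05 and 5e-05, adjusted 0.000675 and 0.00225, r = 0.90 without them). rtp, which did not pass the age tests, was among the members that rose and fell together from head to head. The median r over the 45 pairs was 0.39, and 11 pairs had r below 0, none of which passed. The lowest was inaD with laza at -0.34.

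**Figure D4:**
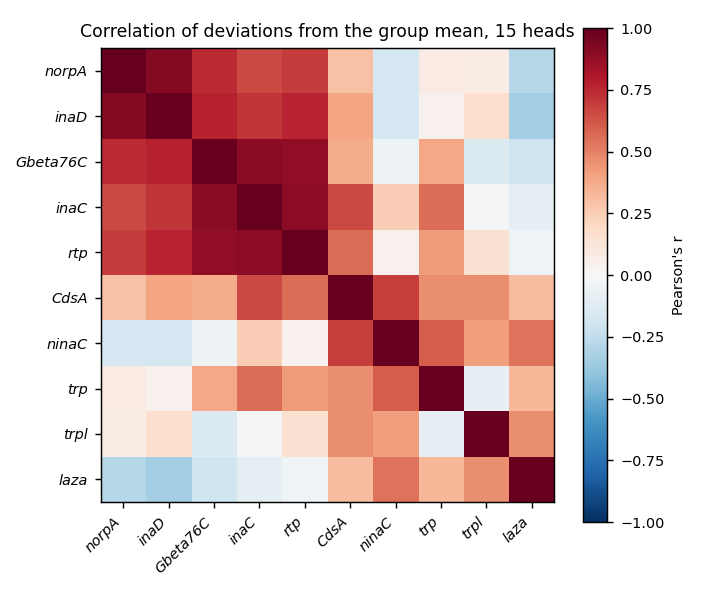
Pearson's r between members over 15 heads after subtracting the mean of each group from log2 CPM, on a colour scale from -1 to 1. norpA, inaD, Gbeta76C, inaC and rtp form a block of positive values, and laza is near or below 0 with all of these.

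Other genes with a like pattern over the 15 heads were ranked by Pearson's coefficient with the mean of the members' standardised levels, as a description that includes the group differences and has no test. Of 8589 other genes that averaged 5 CPM or more, the 8 most alike were CG1561 (0.97), se (0.95), Ggamma30A (0.95), Eaat2 (0.94), nod (0.93), Arr1 (0.93), CG6870 (0.92) and CG10440 (0.91). Ggamma30A encodes the gamma subunit that pairs with Gbeta76C in the eye, and it had 2366 CPM in aged SF, 2053 CPM in aged NSF and 3475 CPM in young heads. Arr1 encodes an arrestin that binds metarhodopsin and had 4684 CPM in aged SF, 4027 CPM in aged NSF and 6125 CPM in young heads. se encodes an enzyme of red eye pigment synthesis, and its level was 38.7 CPM in aged SF, 30.9 CPM in aged NSF and 175 CPM in young heads. CG1561, the most alike, had 404 CPM in aged SF, 326 CPM in aged NSF and 871 CPM in young heads.

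A list of 38 further genes, drawn up around vision from opsins to retinoid enzymes, is set beside the members. Not all of its genes are particular to the head. In young heads against young bodies, 32 of 37 were called higher, 1 lower and 4 neither, where 27.7% of all genes were called higher. In heads 36 could be tested. In aged NSF heads 12 fell and 1 rose, with a median log2 fold change of -0.35, where 11.5% of all genes were called lower and 11.4% higher. Pdh, a retinol dehydrogenase of pigment cells, had 361 ± 109 CPM in aged NSF and 1046 ± 183 CPM in young heads (-1.53). Ggamma30A (-0.76), sun (-0.95), Arr1 (-0.61), the diacylglycerol lipase gene inaE (-0.60) and the sodium-calcium exchanger gene Calx (-0.75) fell too, and Rh4, an opsin of ultraviolet-sensitive R7 cells, rose (0.67). In aged SF heads 16 fell and 0 rose, with a median of -0.40, where 12.2% of all genes were called lower and 13% higher. Here sun (-1.09), the ocellar opsin gene Rh2 (-0.94), Calx (-0.80), Pis (-0.72), which makes phosphatidylinositol from the product of CdsA, Rh6 (-0.71) and Ggamma30A (-0.55) had the smallest adjusted p. The list holds sun, which encodes the epsilon subunit of the mitochondrial ATP synthase and is no vision gene. Without it, 15 fell and 0 rose of 35 in aged SF heads, and 11 fell and 1 rose in aged NSF heads. The alpha subunit gene Galphaq, the third part of the G protein, did not pass: it averaged 217 ± 20.0 CPM in aged SF, 214 ± 21.2 CPM in aged NSF and 229 ± 17.0 CPM in young heads (-0.08 and -0.10 on the log2 scale, edgeR adjusted p = 0.684 and 0.611). The main opsin gene ninaE averaged 23219 ± 2923 CPM in aged SF, 17297 ± 2143 CPM in aged NSF and 22264 ± 5759 CPM in young heads and did not pass either (0.06, adjusted p = 0.803, and -0.36, adjusted p = 0.0665, edgeR). Between aged SF and aged NSF heads 0 of the 36 were called by edgeR, where 0.253% of all genes were.

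Markers of the cell types in a head moved with age as well, and their part in the members' decreases was not tested. Among all genes tested, 12.2% were called lower and 13% higher in aged SF heads, and 11.5% and 11.4% in aged NSF heads. Of 8 photoreceptor marker genes, 2 fell and 1 rose in aged SF heads and 3 fell and 1 rose in aged NSF heads. The list's median log2 fold change was -0.10 in aged SF and -0.23 in aged NSF heads. eys, which encodes a matrix protein of the space between rhabdomeres, and Hdc fell in both aged groups. The log2 fold change of eys was -1.24 in aged SF and -1.26 in aged NSF heads, and that of Hdc was -0.99 and -1.18. chp, which encodes chaoptin, had -0.33 in aged SF heads, which did not pass, and -0.63 in aged NSF heads, which did. gl, oc, prom and bif were not called in either group. Pph13, a transcription factor gene of photoreceptors, rose by 0.61 in aged SF and 0.63 in aged NSF heads. Lens and pigment cell genes summed to 254 to 556 CPM in aged SF, 193 to 391 CPM in aged NSF and 861 to 964 CPM in young heads, and 3 of 7 fell in aged SF and 4 of 7 in aged NSF heads. Neuronal genes summed to 2828 to 3371 CPM in aged SF, 2807 to 3359 CPM in aged NSF and 3057 to 5043 CPM in young heads, and 5 of 9 fell in each aged group. Glial genes fell in 4 and rose in 1 of 7 cases in aged SF heads, and fell in 5 and rose in 1 in aged NSF heads, with sums of 1272 to 1453, 920.5 to 1379 and 1606 to 2095 CPM in aged SF, aged NSF and young heads. Muscle genes fell in 9 of 9 cases in aged SF and 8 of 9 in aged NSF heads (sums of 2168 to 2797, 2541 to 3534 and 4705 to 5844 CPM in aged SF, aged NSF and young heads). Fat body genes fell in 2 and 4 of 8 cases (sums of 1014 to 2890, 839.5 to 2497 and 4152 to 7828 CPM, in the same order of groups). 2 of 4 gut genes rose in each aged group and 1 fell in aged NSF heads, with sums of 645 to 1553, 762 to 1637 and 288 to 569 CPM. None of these lists had a gene called between aged SF and aged NSF heads. Only 0.253% of all genes were called there, so the lack of calls in lists this short does not show equal levels.

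How far the members belong to the head was read from young heads against young bodies, in a fit of all 30 libraries with a common scaling. All 10 members were called higher in young heads by edgeR, and 9 by DESeq2, which gave trp no adjusted p. Over all genes 27.7% were called higher by edgeR, but 5 members had too few reads to pass the filter in bodies alone, so the count is not read against that share. trp averaged 2213 CPM in young heads and 2.08 CPM in young bodies, ninaC 2044 and 1.69 CPM, and rtp 658 and 1.42 CPM. Gbeta76C and inaC had only 5 and 4 reads in all young bodies together, so that their log2 fold changes of 12.36 and 12.14 rest on those few reads. At the other end, CdsA averaged 551 CPM in young heads and 103 CPM in young bodies (log2 fold change 2.43 ± 0.14), and laza 79.5 and 25.6 CPM (1.63 ± 0.23). norpA was between these, at 2092 and 36.2 CPM (5.85 ± 0.21). The median of all genes in this comparison was -0.27 with TMM factors and -0.40 with RLE factors, and all 10 members stayed higher under both.

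In bodies, 5 members had enough reads to be tested: norpA, CdsA, laza, trpl and inaD. Body markers moved with age too. On the common scaling, testis genes had a median sum of 3321 CPM in aged SF, 3033 in aged NSF and 5983 in young bodies. In the same order, muscle genes had 4890, 5799 and 9556 CPM. Neuronal genes (550, 546 and 422 CPM) went the other way. Gut genes (8546, 6209 and 6059 CPM) had a higher median in aged SF bodies only. Their ranges overlapped, at 5514 to 11040, 4622 to 10245 and 5011 to 9360 CPM. The part of these markers in the members' changes was not tested. In aged NSF bodies norpA, laza, inaD and trpl rose, 4 of the 5, and over all genes 21.7% were called higher. The rare member trpl entered the test with its highest levels in that group and its call rests on 1 library, so the count is not read against that share. In aged SF bodies laza alone of the 5 rose, and over all genes 11.1% were called higher. laza was at 41.5, 44.7, 32.7, 62.2 and 53.2 CPM in aged SF bodies, 39.5, 50.2, 46.0, 62.5 and 76.2 CPM in aged NSF bodies and 27.6, 26.4, 22.2, 18.6 and 20.1 CPM in young bodies. No young body reached the lowest aged body. The share of all genes with such a gap in bodies is not given here, so the gap is not read as particular to laza. laza rose by 1.02 ± 0.21 (SE) on the log2 scale in aged SF bodies (edgeR adjusted p = 0.00454) and by 1.25 ± 0.21 in aged NSF bodies (edgeR adjusted p = 0.000481), in the direction opposite to heads. norpA was at 40.5, 50.9, 42.4, 49.7 and 51.9 CPM in aged SF, 39.2, 94.0, 53.8, 49.5 and 65.8 CPM in aged NSF and 39.9, 42.0, 25.1, 28.2 and 27.6 CPM in young bodies, and the groups overlapped. It rose in aged NSF bodies (0.88, edgeR adjusted p = 0.00644). Without aged NSF body 2, its highest body, the rise was 0.69 (edgeR adjusted p = 0.0110). In aged SF bodies norpA had a log2 fold change of 0.53 (edgeR adjusted p = 0.124, 0.0240 in limma with quality weights, 0.0357 with only the compared groups and 0.0478 without aged NSF body 1). CdsA did not pass in bodies, at 78.3 to 99.3 CPM in aged SF, 47.4 to 88.8 CPM in aged NSF and 74.1 to 109 CPM in young bodies. Its log2 fold change was -0.07 in aged SF bodies and -0.39 in aged NSF bodies (edgeR adjusted p = 0.796 and 0.0712), and the second passed at 0.0432 with RLE factors, at 0.0251 in DESeq2 and at 0.0342 without aged NSF body 2.

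inaD and trpl were rare in bodies. inaD had 2.40 to 4.27 CPM in aged SF, 4.36 to 13.5 CPM in aged NSF and 0.622 to 4.79 CPM in young bodies. It rose by 2.09 ± 0.45 on the log2 scale in aged NSF bodies (edgeR adjusted p = 0.00262, and 2.07 at adjusted p = 0.00532 without aged NSF body 2), where its counts were 20 to 56 reads per library. trpl rose by 2.68 ± 0.74 in aged NSF bodies (edgeR adjusted p = 0.0114), but that value rests on aged NSF body 2: without it the log2 fold change was 1.26 at an edgeR adjusted p of 0.0524.

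Aged NSF body 2 held 75 reads of trp, 73 of trpl, 62 of ninaC, 18 of rtp, 15 of Gbeta76C and 6 of inaC. On the common scaling these were 1.61%, 2.80%, 2.03%, 1.62%, 1.02% and 0.541% of the mean level in aged NSF heads, whereas in the other 4 aged NSF bodies the same genes averaged 0.0321%, 0.271%, 0.0652%, 0.225%, 0.00863% and 0.0658%. ninaE, with 796 reads, was at 2.40%, Arr1 at 2.36% and Arr2 at 1.84% of the level in heads, against 0.0607%, 0.0748% and 0.0723% in the other aged NSF bodies. These 9 genes were higher there than in any other body, whereas inaD, at 12.8 CPM on the common scaling, was within the 4.82 to 14.9 CPM of the other aged NSF bodies. norpA, at 104 CPM on the common scaling, exceeded the 72.8 CPM of the next highest body, while CdsA and laza, at 98.1 and 55.5 CPM, were within the range of the other bodies.

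**Figure D5:**
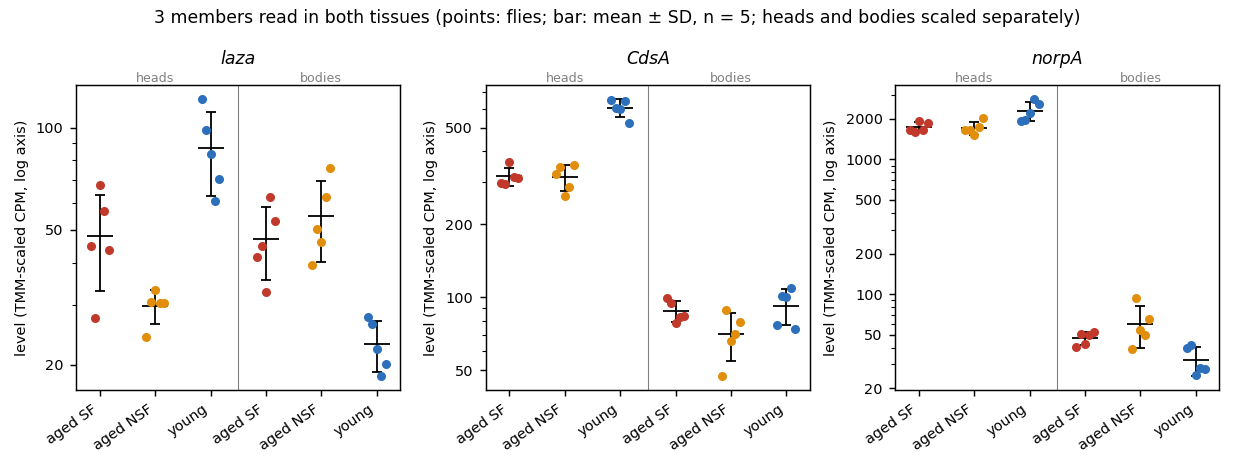
Levels of laza, CdsA and norpA in heads and bodies of aged SF, aged NSF and young flies, in TMM-scaled CPM on log axes, with heads and bodies scaled separately. laza is lower in aged than in young heads but higher in aged than in young bodies, and CdsA is lower in aged than in young heads.

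The difference between tissues was tested itself, as the age difference in heads minus that in bodies in the fit of all 30 libraries. Its background depends on the scaling: the median of all genes was -0.09 with TMM and 0.12 with RLE factors for aged NSF, and -0.15 and 0.06 for aged SF. For aged SF flies 3 members were called lower, where 5.24% of all genes were (200 higher and 645 lower with TMM, 343 and 250 with RLE factors). These were laza (-1.93 ± 0.32, edgeR adjusted p = 0.000244), CdsA (-0.93 ± 0.19, 0.00307) and norpA (-0.98 ± 0.24, 0.0107). The CdsA call was lost without young body 5 (0.0716) or aged SF body 1 (0.0727), and the norpA call without young body 3 or 5, aged NSF body 3 or aged SF body 1 or 4 (edgeR adjusted p = 0.0583 to 0.116). For aged NSF flies 5 members were called lower, and over all genes 8.83% were (534 higher and 1088 lower with TMM, 833 and 534 with RLE factors). laza (-2.79 ± 0.32, edgeR adjusted p = 2.36e-06), inaD (-2.83 ± 0.41, 4.17e-05) and norpA (-1.30 ± 0.24, 0.000682) passed with each of the 30 libraries left out. Without aged NSF body 2, norpA was at -1.09 (edgeR adjusted p = 0.00141). The other two calls rest on few body reads, and Gbeta76C had too few to be tested in bodies alone, so the count is not read against the share of all genes. trpl (-2.94 ± 0.72, 0.00823) moved to -1.59 without aged NSF body 2, at an edgeR adjusted p of 0.0156, and did not pass in limma with quality weights (0.0914). Gbeta76C (-3.02 ± 1.01, 0.0446) turned to 0.33 without that library, at an edgeR adjusted p of 0.819, and passed in 14 of the 30 fits with a library left out. The named calls of laza, CdsA, norpA and inaD held with RLE factors. Calls were also gained in some fits. CdsA was called lower for aged NSF flies without aged NSF body 1 (-0.67, edgeR adjusted p = 0.0151). It was also called without young head 5, aged NSF head 5 or young body 4 (edgeR adjusted p = 0.0381 to 0.0496) and in limma with quality weights (0.0199). inaD was called lower for aged SF flies without aged NSF body 1 (-1.33, edgeR adjusted p = 0.0424), young head 1 (0.0484) or young body 5 (0.0372).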

How the data were processed

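Gene counts were made by the authors and deposited as raw counts of reads on exons. Per the study's design text, reads were trimmed with Trimmomatic, mapped to dm6 with STAR, freed of alignments with a mapping quality below 8 and of non-primary ones, and counted with HTSeq-count. Tool versions, the annotation release and the strand setting are not given in the sources used here. The authors' table of their own tests was not used. Head libraries totalled 1685034 to 3597530 counts and body libraries 2458538 to 8060238. No 2 replicates were copies, since the lowest chi-square per degree of freedom between replicates was 4.42.

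The counts were tested with edgeR 4.0.16 in R 4.3.3 (TMM factors, filterByExpr, robust quasi-likelihood F test, Benjamini-Hochberg adjustment over all genes tested, threshold 0.05): 15 heads in 1 fit, 15 bodies in 1 fit, and all 30 libraries for comparisons between tissues. The standard error is the log2 fold change divided by the root of F. All 10 members passed the filter in heads and in the common fit, and 5 did in bodies. Exon lengths, coordinates and overlaps came from the Ensembl gene annotation of BDGP6, the assembly that dm6 names. The overlaps of 1 member are not reported here. The members and lists were chosen with earlier results of these data known. Named were all members, up to 6 genes of the further list per direction with the smallest adjusted p, and the 8 genes most like the members. Galphaq, ninaE, Arr2, eys, Hdc, chp and Pph13 were singled out, and the ratios chosen, after their values had been seen. Alternatives were RLE factors, no filter, at least 5 CPM in at least 5 libraries, DESeq2 1.42.0, limma 3.58.1 with quality weights (voom), the replicate number as a block, only the compared groups, and each library left out. The edgeR steps were tested on simulated data.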

Additional observations from a re-analysis of the deposited data

Results flagged for a closer look

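Single samples stood far from the other 4 of their group in 10 of 60 sets of member levels (each a member in 1 group of 5). Chance gives about 1 in 20 for independent values with a normal spread. The sets share libraries and many body sets hold only a few reads, so the count is not read against that rate. Of the 10 sets, 6 belonged to aged NSF body 2, the highest of its group in trp (32.2 CPM), trpl (31.3 CPM), ninaC (26.6 CPM), rtp (7.72 CPM), Gbeta76C (6.44 CPM) and inaC (2.57 CPM). The other aged NSF bodies reached at most 1.53 CPM of trp and 3.92 CPM of trpl. Aged NSF head 3 was the lowest in trp, at 1891 CPM against 2461 to 2649 CPM in the other aged NSF heads. Aged SF head 3 was the highest in CdsA, at 361 CPM against 294 to 313 CPM. Aged SF body 1 was the highest in trp (2.51 CPM, 21 reads) and aged SF body 3 in inaC (1.84 CPM, 8 reads).

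The age difference itself differed between heads and bodies for several members (edgeR, heads minus bodies on the log2 scale). For aged SF flies these were laza (-1.93), norpA (-0.98) and CdsA (-0.93). For aged NSF flies the genes called were Gbeta76C (-3.02), trpl (-2.94), inaD (-2.83), laza (-2.79) and norpA (-1.30). Without aged NSF body 2, Gbeta76C turned to 0.33 (edgeR adjusted p = 0.819), so its call is not read as a difference between tissues. The value of trpl moved to -1.59 without that library (edgeR adjusted p = 0.0156). laza changed in opposite directions in the tissues and passed under every alternative tried.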

How the results depend on the processing

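In heads, Gbeta76C, CdsA, laza, inaC and inaD in both age comparisons and ninaC in aged NSF heads passed under all 7 alternatives and with each of the 15 heads left out. norpA did not, as given in the report. No member was called between aged SF and aged NSF heads under any of these. The number of genes called there was 23, and it was 56 without a filter, 88 in DESeq2, 39 in limma with quality weights, 36 with only the compared groups and 9 to 61 with a library left out. It fell to 15, 10 or 11 without aged NSF head 2, 4 or 5 and to 10, 15, 9 or 9 without aged SF head 1, 2, 3 or 4, and was 61 without aged SF head 5.

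Equal replicate numbers did not pair the head groups (correlations of same-numbered deviations -0.0398 to 0.151). With the replicate number as a block, 63 genes were called between aged SF and aged NSF heads, 0 of them members, and in the other head comparisons 7 members (aged NSF) and 6 (aged SF) were called as without it. Under the block, the heads minus bodies call of Gbeta76C in aged NSF flies was lost (edgeR adjusted p = 0.0547), that of inaD in aged SF flies was gained (0.0467), and no other member call changed. Heads and bodies of equal number correlated at 0.031 to 0.257, and 4, 5 and 4 of 5 heads of the aged SF, aged NSF and young groups correlated best with the body of their own number, a hint from the data and not the design. The block joins equal numbers across all groups, so it does not model a head and a body of the same fly. The tests between tissues treated the 30 libraries as independent, and a pairing by fly was not tested.

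For aged SF over young bodies, 1727 genes were called, 4242 in limma, 3369 with only the compared groups and 1087 to 3391 with a library left out (lowest without young body 5, 1118 without young body 4, highest without aged NSF body 1). Members called were 1, and 2 in limma, with only the compared groups and without aged NSF body 1 (range 1 to 2). The split of higher and lower genes was 1336 to 391 with TMM and 977 to 489 with RLE factors. For aged NSF over young bodies 4 members were called, and 2 with at least 5 CPM in 5 libraries, where trpl and inaD could not be tested. Heads minus bodies gave 845 genes for aged SF flies, 1437 in limma and 422 to 1026 with a library left out (422, 461 and 540 without young body 3, 5 or 2 and 446 without aged SF body 1), with 1 to 4 members (1 without aged SF body 1). For aged NSF flies it gave 1622 genes, 991 to 1885 with a library left out (lowest without young body 3), and Gbeta76C lay between -3.40 and 0.33 with a library left out, reversed without aged NSF body 2. The cause of these shifts was not tested. Depth limits laza in heads, with 51 to 355 reads per library, and Gbeta76C and inaC in bodies.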
